A study of Mus musculus with 6 samples.

Results

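The 10 genes described here encode transcription factors of the secretory lineages of the intestine: Atoh1, Spdef, Gfi1, Foxa1, Foxa2, Foxa3, Creb3l1, Creb3l4, Xbp1 and Bhlha15. They were picked by name, and each was found as 1 row among the 23565 genes of the deposited count table. RNA was sequenced from epithelial cells sorted from small-intestinal crypts of mice, 16 hours after 1 mg of tamoxifen. The Hopx-CreER group (HopXCreER::Rosa26LSL-tdTomato) held 3 libraries of tdTomato-positive cells. The Lgr5-CreER group (Lgr5eGFP-IRES-CreER::Rosa26LSL-tdTomato) held 3 libraries of cells positive for both eGFP and tdTomato. In both groups tamoxifen frees a Cre recombinase made from the named locus, and Cre then switches on the red protein tdTomato from Rosa26. Cells are thus marked by where the Hopx or the Lgr5 locus was active at the time of tamoxifen, and only the second group was also gated on eGFP, so genotype and gate cannot be told apart. The series text counts 3 mice of each genotype. The sources used here give neither age, sex nor background strain, and do not say whether animals were pooled.

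The intestinal crypt makes absorptive and secretory cells from stem cells at its base. Low Notch signalling lets a progenitor keep Atoh1, the basic helix-loop-helix (bHLH) factor needed for Paneth, goblet and enteroendocrine cells in the mouse. Gfi1, a zinc-finger repressor, then favours the Paneth and goblet fates over the enteroendocrine fate, and Spdef, an Ets-family factor, drives maturation of goblet and Paneth cells. Foxa1 and Foxa2 are forkhead pioneer factors with roles in goblet and enteroendocrine cells, and Foxa3 is their relative. Creb3l1 and Creb3l4 are bZIP factors held in the endoplasmic reticulum (ER) membrane until they are cut free. Xbp1 is the bZIP effector of the unfolded protein response, switched on by unconventional splicing of its mRNA by Ire1, and is required for Paneth cells. Bhlha15, also called Mist1, enlarges the secretory machinery of exocrine cells and is a known target of Xbp1. A count per gene cannot tell spliced from unspliced Xbp1 mRNA.

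Promoter windows from RefSeq (GRCm38.p6, 250 bases before to 50 after an annotated start, 300 in all) were found for 9 of the 10 genes, in 14 windows. The windows of the 3 genes whose RNA passed the test below are printed in the direction of transcription. Capitals mark the E-box CANNTG, the class of site that bHLH proteins such as Atoh1 and Bhlha15 bind. The windows are chr11:5520391-5520690 (plus strand) for Xbp1, chr5:144190036-144190335 (plus strand) for Bhlha15 and chr7:19023490-19023789 (minus strand) for Foxa3.
Xbp1: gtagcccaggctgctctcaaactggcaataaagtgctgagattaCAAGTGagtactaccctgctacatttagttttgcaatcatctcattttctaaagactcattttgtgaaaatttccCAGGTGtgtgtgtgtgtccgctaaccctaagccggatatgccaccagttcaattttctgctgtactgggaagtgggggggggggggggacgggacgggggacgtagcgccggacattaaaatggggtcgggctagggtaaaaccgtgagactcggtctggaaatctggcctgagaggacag
Bhlha15: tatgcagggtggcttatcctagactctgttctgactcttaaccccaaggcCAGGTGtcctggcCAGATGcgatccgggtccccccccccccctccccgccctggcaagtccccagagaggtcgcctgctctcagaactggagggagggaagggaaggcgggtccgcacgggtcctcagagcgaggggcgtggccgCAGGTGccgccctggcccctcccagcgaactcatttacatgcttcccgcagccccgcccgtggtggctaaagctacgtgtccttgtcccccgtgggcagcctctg
Foxa3: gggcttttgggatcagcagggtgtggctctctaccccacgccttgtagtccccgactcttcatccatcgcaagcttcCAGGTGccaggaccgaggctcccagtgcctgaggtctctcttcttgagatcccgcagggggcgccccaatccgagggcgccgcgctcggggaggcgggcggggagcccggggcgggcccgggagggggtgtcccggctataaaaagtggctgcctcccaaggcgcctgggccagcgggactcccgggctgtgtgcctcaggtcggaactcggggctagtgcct
The Xbp1 window held 2 E-boxes, that of Bhlha15 held 3 and that of Foxa3 held 1. E-boxes are common: 72.3% of 32851 windows held at least 1, 39.6% at least 2 and 17.6% at least 3. The windows of Atoh1 and Spdef held none. The pentamer CCACG, a part of the ER stress element bound by Xbp1, was searched on both strands and occurred 3 times in the Bhlha15 window, once in the Foxa3 window and not in the Xbp1 window. At least 1 match was present in 32.8% of all windows and at least 3 in 3.05%. These matches describe letters only, and binding was not measured.

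Estimated differences between the groups were under 2-fold for each of the 10 factors. All 10 passed the filter on low counts and were tested. Xbp1 and Bhlha15 rose in Hopx-CreER cells and Foxa3 fell, by the edgeR quasi-likelihood test at an adjusted p (Benjamini-Hochberg over 12439 tested genes) under 0.05. The other 7 did not pass. Among all tested genes 12.8% passed, 9.45% as higher and 3.30% as lower in Hopx-CreER cells, a share at which about 1 of 10 genes would pass. No test was made over the 10 genes together. At an unadjusted p under 0.05 stood 7 of the 10 factors and 27.3% of all tested genes. Taking log2 fold changes as positive where Hopx-CreER cells were higher, the median was 0.54 for the 10 factors and -0.033 for all tested genes. By levels alone, every Hopx-CreER library lay above every Lgr5-CreER library for 5 factors (Spdef, Creb3l1, Creb3l4, Xbp1 and Bhlha15) and below for 2 (Foxa1 and Foxa3), while the groups overlapped for 3. Over all tested genes, 34.9% were apart in either way, 18.8% in the first and 16.2% in the second. The libraries are bulk RNA, so fewer cells of a type and less RNA per cell cannot be told apart.

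**Figure D1:**
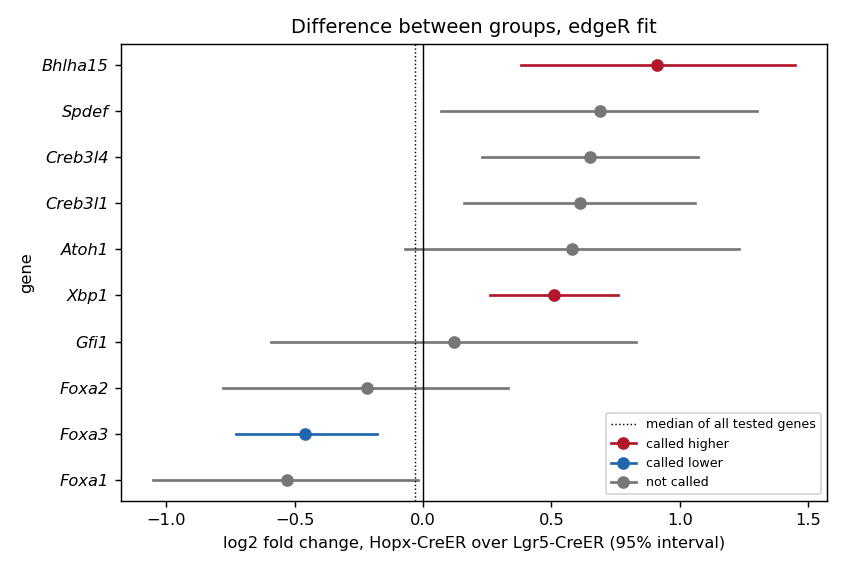
Log2 fold change of each factor (positive where Hopx-CreER is higher) with its 95% interval from the edgeR fit, for 3 libraries a group. Xbp1 and Bhlha15 (red) passed as higher and Foxa3 (blue) as lower, and the dotted line is the median of all 12439 tested genes, at -0.033.

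Library totals ran from 10839306 to 14570555 counts, so 3 counts were worth 0.20 to 0.28 CPM (counts scaled to a common depth with TMM factors). The 10 factors took 8560 to 12933 counts in a library. Columns carry no replicate label, and each name starts with a number whose meaning was not given. The names of Lgr5-CreER columns 2 and 3 hold the same number, and whether they come from the same mouse is not known. The p-values thus measure the spread between these 6 libraries, which may be technical. On the first principal component (58.6% of the variance) Hopx-CreER library 3 lay at -66.3, and libraries 1 and 2 at -27.8 and -35.7. Lgr5-CreER libraries lay there at 37.2 to 49.1. On the second (18.1%) Hopx-CreER library 3 lay at -39.9, and libraries 1 and 2 at 24.6 and 34.1. Over 8163 genes, the log2 difference of Hopx-CreER library 1 from Hopx-CreER library 3 had an SD of 0.589. Its SD from Lgr5-CreER libraries 1, 2 and 3 was 0.648, 0.625 and 0.563. The column name of library 3 alone carries an added tag, 4-5k, which the sources used here do not explain. The genes whose loci carry the Cre were both lower in every Hopx-CreER library, Hopx at 54.2 ± 9.64 against 89.7 ± 3.93 CPM (SD, n = 3) and Lgr5 at 41.3 ± 17.7 against 107.6 ± 3.93 CPM. The epithelial genes Epcam, Cdh1, Krt8, Krt18, Cdx2 and Vil1 summed to 11820 to 12630 CPM in Hopx-CreER and 8556 to 8928 CPM in Lgr5-CreER libraries. Of these, Krt8 and Krt18 passed as higher in Hopx-CreER cells (edgeR adjusted p 0.00122 and 0.00239) and the other 4 did not pass. Xbp1 and Bhlha15 are also active in plasma cells and Gfi1 in blood cells. Of 7 plasma cell markers, Mzb1 and Tnfrsf17 had 0 counts in all 6 libraries, Jchain, Ighm, Igha and Igkc were at most 0.278 CPM, and Sdc1, which epithelium also makes, ran from 241.9 to 357 CPM. The 8 immune markers summed to 3.46 to 6.39 CPM in Hopx-CreER and 2.33 to 3.61 CPM in Lgr5-CreER libraries. Of the stromal list, 3 of 6 genes were in the table, and their sum was at most 0.604 CPM.

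**Figure D2:**
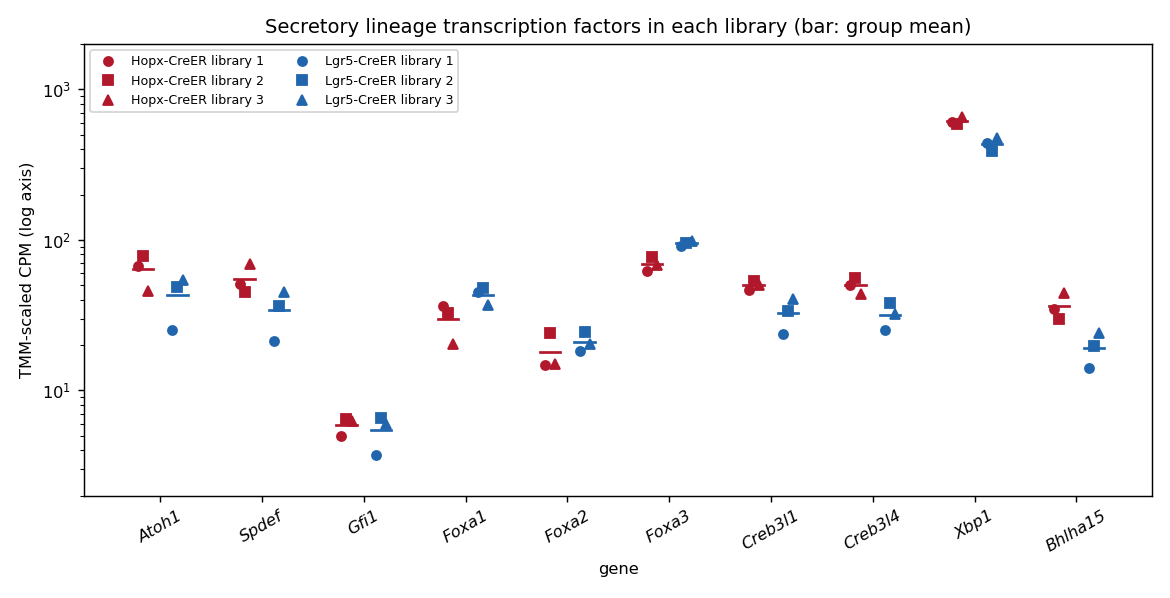
TMM-scaled CPM (log axis) of each factor in the 3 Hopx-CreER libraries (red) and the 3 Lgr5-CreER libraries (blue), with a bar at each group mean. Xbp1 sits near 618 and 434 CPM and Gfi1 near 5.89 and 5.43 CPM, with the other 8 between 14.2 and 98.3 CPM in every library.

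Set side by side per kilobase of exon, the factors ran over about the same order in both groups. Xbp1 stood far above the rest, at 190.3 ± 11 CPM per kb (SD, n = 3) in Hopx-CreER cells and 133.5 ± 13.3 in Lgr5-CreER cells. This level exceeded that of 97.5% and 96.7% of all tested genes. Foxa3 was second in both groups, at 34.0 ± 3.51 and 46.6 ± 1.72 CPM per kb. In Lgr5-CreER cells the Foxa3 range lay clear of its neighbours, whereas in Hopx-CreER cells it overlapped that of Atoh1. Atoh1, Creb3l4 and Spdef followed in that order in both groups, from 30 down to 23.8 CPM per kb in Hopx-CreER cells and from 20.1 down to 14.8 in Lgr5-CreER cells, each overlapping the next. Bhlha15 was seventh in Hopx-CreER cells (10.4 ± 2.08) and ninth in Lgr5-CreER cells (5.51 ± 1.41). Foxa1 was eighth in the former (8.92 ± 2.52) and sixth in the latter (12.9 ± 1.74). Gfi1 was last in both groups, at 1.85 ± 0.253 and 1.70 ± 0.466 CPM per kb.

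Atoh1 (ENSMUSG00000073043.5; 1 exon, chromosome 6, 64729125 to 64731245, plus strand, GRCm38) did not pass the test. It stood at 67.3, 77.9 and 45.9 CPM in Hopx-CreER libraries 1, 2 and 3 and at 25.3, 48.6 and 54.2 CPM in Lgr5-CreER libraries 1, 2 and 3. The groups overlapped, since Hopx-CreER library 3 lay below Lgr5-CreER libraries 2 and 3. The means were 63.7 ± 16.3 and 42.7 ± 15.3 CPM (SD, n = 3), and the log2 fold change was 0.58 ± 0.29 (SE; edgeR adjusted p 0.231). Its 95% interval, -0.07 to 1.23, spans folds from 0.953 to 2.34.

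Gfi1 and Spdef, which act downstream of Atoh1, did not pass the test. Gfi1 (ENSMUSG00000029275.17; chromosome 5, 107716657 to 107726036, minus strand) stood at 4.96, 6.42 and 6.30 CPM in Hopx-CreER libraries and 3.74, 6.56 and 5.98 CPM in Lgr5-CreER libraries. The groups lay on top of each other, with a log2 fold change of 0.12 ± 0.31 (SE; edgeR adjusted p 0.829) and an interval of -0.59 to 0.83. The RNA A430072P03Rik runs antisense over 101 bases of Gfi1 exon, and it had 0 counts in 5 libraries and 3 in Lgr5-CreER library 1, against 56 to 87 Gfi1 counts a library. Spdef (ENSMUSG00000024215.13; chromosome 17, 27714352 to 27728955, minus strand) stood at 50.7, 44.9 and 68.9 CPM in Hopx-CreER libraries and at 21.1, 36.3 and 44.7 CPM in Lgr5-CreER libraries. The groups were apart only narrowly, with Hopx-CreER library 2 at 44.9 CPM and Lgr5-CreER library 3 at 44.7. The log2 fold change of Spdef was 0.69 ± 0.27 (SE; edgeR adjusted p 0.138).

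The 3 forkhead genes had lower means in Hopx-CreER cells, and Foxa3 alone passed the test. Foxa3 (ENSMUSG00000040891.6; chromosome 7, 19013284 to 19023538, minus strand) stood at 62.5, 76.8 and 68.4 CPM in Hopx-CreER libraries and at 91.4, 95.2 and 98.3 CPM in Lgr5-CreER libraries. The Lgr5-CreER libraries were tightly grouped and all above the highest Hopx-CreER library. Foxa3 fell by 0.46 ± 0.12 on the log2 scale (SE; edgeR adjusted p 0.0379), which is 1.37-fold higher in Lgr5-CreER cells. Foxa3 no longer passed when Hopx-CreER library 1 was left out (edgeR adjusted p 0.0976), nor when Lgr5-CreER library 1 (0.0873), 2 (0.128) or 3 (0.14) was, with log2 fold changes of -0.37 to -0.54 over all 6 left-out libraries. It also lost its call with the Lgr5-CreER columns sharing a number summed (-0.45, edgeR adjusted p 0.123). Foxa1 (ENSMUSG00000035451.6; chromosome 12, 57540628 to 57546916, minus strand) stood at 36.1, 32.8 and 20.2 CPM in Hopx-CreER libraries and 44.9, 47.8 and 36.6 CPM in Lgr5-CreER libraries. The groups nearly met, at 36.1 and 36.6 CPM, and Hopx-CreER library 3 was the lowest of the 6. Its log2 fold change was -0.53 ± 0.23 (SE; edgeR adjusted p 0.164). Foxa2 (ENSMUSG00000037025.11; chromosome 2, 148042877 to 148046969, minus strand) ran from 14.8 to 24.2 CPM in Hopx-CreER and from 18.3 to 24.4 CPM in Lgr5-CreER libraries, which overlapped (-0.22 ± 0.25; edgeR adjusted p 0.599).

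The make-up of the forkhead trio overlapped between the groups. Per kilobase of exon, Foxa3 held 67.5% ± 4.82 (SD, n = 3) of the summed Foxa level in Hopx-CreER cells and 68.2% ± 2.83 in Lgr5-CreER cells. Foxa1 held 17.6% ± 4.78 and 18.9% ± 2.34, and Foxa2 held 14.9% ± 2.49 and 12.9% ± 1.38. The groups overlapped for all 3 shares. Within Hopx-CreER cells the Foxa1 share ran from 22.7% in library 1 to 13.2% in library 3.

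Creb3l1 and Creb3l4, the ER-anchored factors, had higher levels in all Hopx-CreER libraries but did not pass. Creb3l1 (ENSMUSG00000027230.9; chromosome 2, 91982328 to 92024502, minus strand), whose product is active in secretory and matrix-making cells, stood at 46.2, 53.3 and 50.4 CPM in Hopx-CreER and 23.8, 33.8 and 40.7 CPM in Lgr5-CreER libraries. Its log2 fold change was 0.61 ± 0.20 (SE; edgeR adjusted p 0.0821). Creb3l4 (ENSMUSG00000027938.11; chromosome 3, 90237500 to 90243512, minus strand) stood at 50, 55.7 and 43.7 CPM in Hopx-CreER and 25.2, 38.0 and 32.1 CPM in Lgr5-CreER libraries. Its log2 fold change was 0.65 ± 0.19 with an edgeR adjusted p of 0.0505, just short of the threshold, and 95% limits of 0.23 and 1.07. Within the pair the proportions overlapped between groups, with Creb3l1 at 39.4% ± 2.86 (SD, n = 3) of the summed level per kilobase in Hopx-CreER cells and 39.8% ± 4.58 in Lgr5-CreER cells. Creb3l4 passed without Hopx-CreER library 3 (edgeR adjusted p 0.0207), and adjusted p over its 16 alternatives ran from 0.0172 to 0.155. For Creb3l1 that range was 0.0469 to 0.255.

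Xbp1 and Bhlha15, the factors of secretory capacity, rose in Hopx-CreER cells. Xbp1 (ENSMUSG00000020484.18; chromosome 11, 5520659 to 5525893, plus strand) stood at 606, 590.5 and 659 CPM in Hopx-CreER libraries and at 439, 388 and 474 CPM in Lgr5-CreER libraries. The lowest Hopx-CreER library lay well above the highest Lgr5-CreER library. The log2 fold change was 0.51 ± 0.11 (SE), or 1.43-fold (edgeR adjusted p 0.0172). Bhlha15 (ENSMUSG00000052271.7; chromosome 5, 144190286 to 144194441, plus strand) stood at 34.7, 29.9 and 44.2 CPM in Hopx-CreER libraries and at 14.2, 19.6 and 24.0 CPM in Lgr5-CreER libraries. The groups did not overlap, and Hopx-CreER library 3 was the highest of the 6. Its log2 fold change was 0.91 ± 0.24 (SE), or 1.88-fold, the largest estimate of the 10 factors (edgeR adjusted p 0.0349). Xbp1 no longer passed when Lgr5-CreER library 1 (edgeR adjusted p 0.0592) or 2 (0.0857) was left out. Bhlha15 lost its call when Hopx-CreER library 1 (0.0627), Lgr5-CreER library 1 (0.11) or Lgr5-CreER library 2 (0.117) was. Bhlha15 also lost it with library totals alone (0.79 on the log2 scale, edgeR adjusted p 0.0575), with offsets for GC content (0.70, 0.0609) and with the Lgr5-CreER columns sharing a number summed (1.00, 0.0773). On CPM, an exact permutation test, two-sided, gave p = 0.1 for Xbp1, Bhlha15 and Foxa3, the smallest that 3 against 3 allows.

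Genes of ER stress and secretion moved in part, and a link of their differences to Xbp1 was not tested. Of 34 tested genes of the unfolded protein response and the ER secretory pathway, 7 were higher in Hopx-CreER cells, 0 were lower and 27 did not pass. Among all tested genes 9.45% were higher and 3.30% lower. The list had a median log2 fold change of 0.20. Sec24d, a coat protein of vesicles leaving the ER, rose by 1.24 ± 0.13 on the log2 scale (SE; 110.8 ± 7.43 against 46.8 ± 4.74 CPM, SD, n = 3; edgeR adjusted p 0.000693). Atf4, a stress-induced bZIP factor, rose by 0.58 ± 0.12 (edgeR adjusted p 0.0137), Edem2, of ER-associated degradation, by 0.48 ± 0.12 (0.0271), and Ddit3, a stress-induced factor, by 0.94 ± 0.23 (0.0282). The remaining calls, chosen for mention after their values were seen, were Atf6, Edem1 and Manf. The chaperone Hspa5 (BiP) had a log2 fold change of -0.06 ± 0.22 (edgeR adjusted p 0.889), at 1134, 1025 and 571 CPM in Hopx-CreER and 891, 978 and 967 CPM in Lgr5-CreER libraries. Ern1, which encodes Ire1, had 0.20 ± 0.22 (edgeR adjusted p 0.597). The list's count of higher genes was 3 and 3 without Hopx-CreER library 1 or 2, and 2, 1 and 1 without Lgr5-CreER library 1, 2 or 3, while Sec24d passed in each of these fits. The count was 3 with library totals alone and 1 with the Lgr5-CreER columns sharing a number summed. Atf4 no longer passed when Lgr5-CreER library 2 or 3 was left out (edgeR adjusted p 0.0741 and 0.061). Edem2 kept its call only without Hopx-CreER library 1 or 3 (otherwise 0.0564 to 0.106), and Ddit3 only without Hopx-CreER library 2 or 3 (otherwise 0.0515 to 0.124).

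Targets of Bhlha15 named in mouse stomach and pancreas also held some calls. Of 7 listed genes 5 were tested, of which 3 were higher and 0 lower (all tested genes: 9.45% and 3.30%). Their median log2 fold change was 0.47. Copz2, a subunit of vesicle coats, rose by 3.55 ± 0.60 on the log2 scale (SE; 2.74 ± 1.16 against 0.234 ± 0.171 CPM, SD, n = 3, the latter at about 3 counts; edgeR adjusted p 0.00579). Rab3d, a GTPase of secretory granules, rose by 0.37 ± 0.10 (edgeR adjusted p 0.0363), and Gjb1, a gap junction protein, by 0.47 ± 0.13 (0.0427). Rab3d kept its call only without Hopx-CreER library 3 (edgeR adjusted p otherwise 0.0651 to 0.129), and Gjb1 only without Lgr5-CreER library 1 (otherwise 0.062 to 0.175). Tmed6 did not pass, at 0.56 ± 0.24 (edgeR adjusted p 0.162). The count was 1 without Hopx-CreER library 1 or 2 and without Lgr5-CreER library 2 or 3, and 2 without Hopx-CreER library 3 or Lgr5-CreER library 1. It was also 1 with library totals alone, upper quartile factors, GC offsets or the Lgr5-CreER columns sharing a number summed, and 2 with no filter on low counts. Rab26, a granule GTPase, had 13 counts over the Hopx-CreER libraries and was not tested.

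Markers of secretory cells were higher in Hopx-CreER cells, with larger fold changes than the factors. The 21 goblet products included 16 higher, 0 lower and 5 that did not pass, where 9.45% of all tested genes were higher and 3.30% lower. Their median log2 fold change was 1.68, against 0.54 for the 10 factors. Their summed level was 8831, 12530 and 8288 CPM in Hopx-CreER libraries and 2578, 3379 and 3437 CPM in Lgr5-CreER libraries. Muc2, the gel-forming mucin, rose by 2.02 ± 0.19 on the log2 scale (SE; edgeR adjusted p 0.000548), Spink4 by 2.02 ± 0.20 (0.000615) and Klk1, a kallikrein, by 1.90 ± 0.11 (0.000212). Clca1, a protein of mucus, rose by 2.90 ± 0.29 (edgeR adjusted p 0.000651). The goblet count was 11 without Lgr5-CreER library 2. Of 10 Paneth markers, 9 were higher, and the list summed to 16180, 15160 and 32830 CPM in Hopx-CreER and 1685 to 3326 CPM in Lgr5-CreER libraries. All 8 enteroendocrine markers were higher (3315 to 8586 against 189.8 to 338 CPM summed), as were all 6 tuft markers (832, 658 and 205 against 92.9 to 136 CPM). The tuft count was 4 without Hopx-CreER library 2 or Lgr5-CreER library 1 or 3, and 3 without Lgr5-CreER library 2 or with the Lgr5-CreER columns sharing a number summed. All 8 enterocyte markers were higher too (1252 to 2863 against 359 to 509.9 CPM), and the 7 stem cell markers were all lower (2864 to 4643 against 9636 to 10210 CPM). The enterocyte count was 6 with DESeq2 or limma-voom, and the enteroendocrine count was 7 with library totals alone. Of 6 fits that left out a library, the enterocyte markers Lct and Apoa4 each passed in 3. The enteroendocrine markers Cck and Gcg passed in 2 and 3 of these fits, and the stem cell marker Lgr5 in 4. The part of these marker levels in the differences of the 10 factors was not tested.

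**Figure D3:**
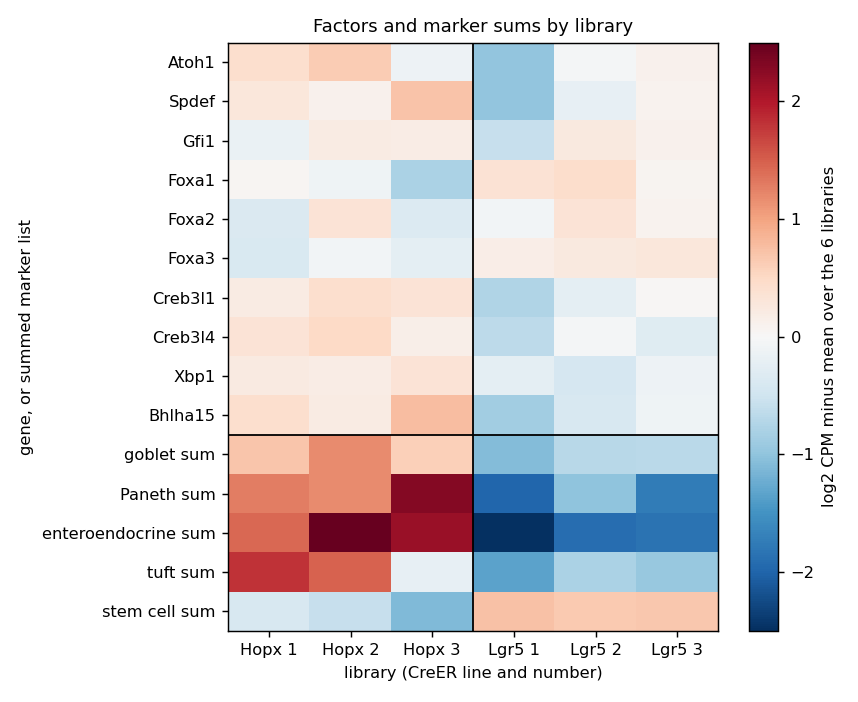
Log2 CPM of each factor, and of 5 summed marker lists, minus its mean over the 6 libraries, with red above and blue below the mean. The marker sums differ strongly between the groups, whereas the factors differ less. Within the Hopx-CreER group, Atoh1 and Foxa1 are lowest in library 3, where Spdef and Bhlha15 are highest. Over the 6 libraries Atoh1 is lowest in Lgr5-CreER library 1.

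Within the Hopx-CreER group the factors did not move together. Library 3 had about 2 times the Paneth marker sum of libraries 1 and 2 and the lowest tuft sum. It also had the highest enterocyte sum (2863 against 1595 and 1252 CPM) and the lowest stem cell sum (2864 against 4643 and 4131 CPM). In library 3 Spdef (68.9 CPM), Bhlha15 (44.2) and Xbp1 (659) were at their highest. Atoh1 (45.9), Foxa1 (20.2) and Creb3l4 (43.7) were at their lowest there. In library 2, with the highest goblet and enteroendocrine sums, Atoh1 (77.9), Gfi1 (6.42), Foxa2 (24.2), Foxa3 (76.8), Creb3l1 (53.3) and Creb3l4 (55.7) were at their highest. Without Hopx-CreER library 3 the log2 fold changes of Atoh1 and Bhlha15 were 0.75 and 0.73 (edgeR adjusted p 0.0756 and 0.0457). That adjusted p of Atoh1 was the lowest of its 16 alternatives, which ran up to 0.471, with log2 fold changes of 0.31 to 0.79. The levels above come from single libraries and no test applies to their order.

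When each factor was divided by the summed goblet products of its own library, 9 of 10 had lower ratios in all Hopx-CreER libraries, Spdef being the exception. Among 12303 tested genes with a count in every library, 88.1% did so too, so the share of the factors is near that of genes at large. For Atoh1 the log2 ratio was -7.29 ± 0.23 in Hopx-CreER and -6.26 ± 0.36 in Lgr5-CreER cells (SD, n = 3; exact two-sided permutation p = 0.1). The goblet sum was itself higher in every Hopx-CreER library, so this p cannot speak for Atoh1 alone.

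**Figure D4:**
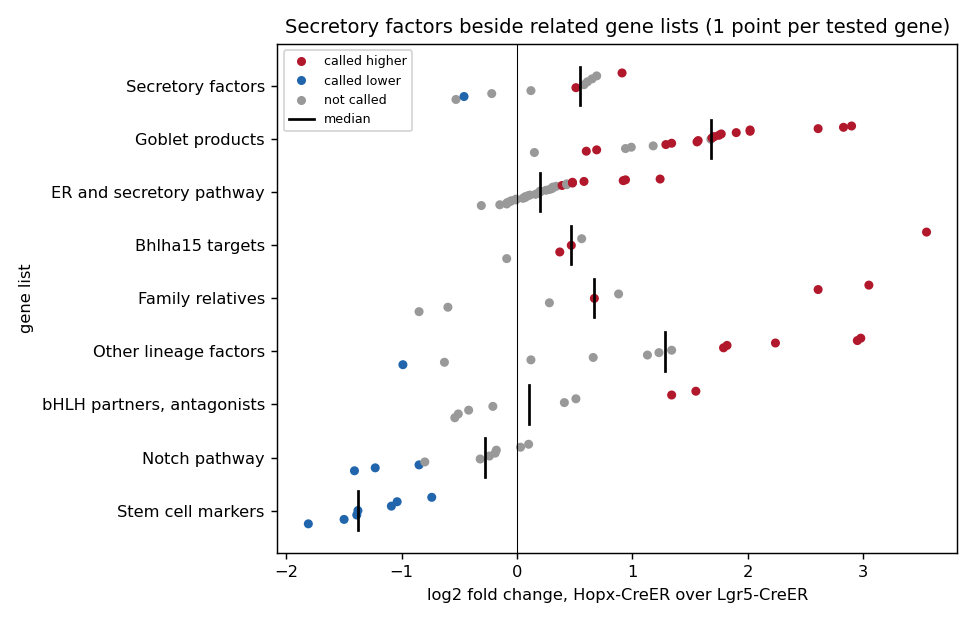
Log2 fold change (positive where Hopx-CreER is higher) of each tested gene in the 10 secretory factors and in 8 related lists, with the median of each list as a black bar. The factors centre on 0.54, between the ER genes at 0.20 and the goblet products at 1.68, and the medians of the Notch and stem cell lists lie below 0.

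In the Notch pathway, which restrains Atoh1, both receptors tested and the modifier Lfng were lower in Hopx-CreER cells. Of 12 listed genes 10 were tested, 3 lower, 0 higher and 7 not passing (all tested genes: 3.30% lower, 9.45% higher). The median log2 fold change of the 10 was -0.28. Notch2 fell by 1.41 ± 0.24 on the log2 scale (SE; 12.6 ± 1.06 against 33.7 ± 9.74 CPM, SD, n = 3; edgeR adjusted p 0.00585). Notch1 fell by 1.23 ± 0.27 (edgeR adjusted p 0.0167, and 0.0539 without Hopx-CreER library 1). Lfng, a glycosyltransferase that tunes Notch receptors, fell by 0.85 ± 0.16 (edgeR adjusted p 0.0096). Hes1, the Notch target that represses Atoh1, stood at 86.1 ± 4.96 against 98.0 ± 3.26 CPM (log2 fold change -0.19, edgeR adjusted p 0.307). The ligands Dll1 and Dll4, made by secretory progenitors, did not pass, with -0.18 (edgeR adjusted p 0.536) and 0.10 (0.709) on the log2 scale. Rbpj, the DNA-binding partner of cleaved Notch, did not pass (-0.80 ± 0.34, edgeR adjusted p 0.165).

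Among 8 tested partners and antagonists of bHLH factors, 2 passed as higher and 0 as lower (all tested genes: 9.45% and 3.30%). Id3 and Id1, which bind E proteins and keep them from DNA, rose by 1.55 ± 0.26 and 1.34 ± 0.25 on the log2 scale (SE; edgeR adjusted p 0.00561 and 0.00825) and passed in all 6 fits that left out a library. Id3 stood at 208.5, 179 and 390 CPM in Hopx-CreER and 88.6, 80.7 and 95.4 CPM in Lgr5-CreER libraries, highest in Hopx-CreER library 3. The other 6 of the 8 tested genes did not pass, among them Id2 (0.41 ± 0.26, edgeR adjusted p 0.348) and Id4 (0.51 ± 0.71, 0.677). Also among them were the E protein gene Tcf3, whose product pairs with Atoh1 (-0.21 ± 0.12, edgeR adjusted p 0.294), and Hes6 (-0.42 ± 0.14, 0.0783). Genes called lower in this list numbered 1 with library totals alone, no filter on low counts or Hopx-CreER library 3 left out, and 2 with GC offsets.

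Relatives of the factors outside the list included some larger differences. Of 9 listed family members 7 were tested, 3 higher and 0 lower (all tested genes: 9.45% and 3.30%). Creb3l3, an ER-anchored factor of enterocytes and liver, rose by 3.05 ± 0.27 on the log2 scale (SE; 111.9 ± 23.9 against 13.5 ± 4.95 CPM, SD, n = 3; edgeR adjusted p 0.000443), while its paralogs Creb3l1 and Creb3l4 did not pass; the difference between paralogs was not tested. Gfi1b, a tuft cell factor and paralog of Gfi1, stood at 15.7, 21.6 and 3.80 CPM in Hopx-CreER and 1.47, 3.11 and 2.20 CPM in Lgr5-CreER libraries (2.61 ± 0.59, edgeR adjusted p 0.020). Gfi1b kept its call in 2 of 6 fits and lost it when Hopx-CreER library 2 (0.0659) or Lgr5-CreER library 1 (0.0796), 2 (0.0565) or 3 (0.0808) was left out. Creb3 rose by 0.67 ± 0.16 (edgeR adjusted p 0.0256), but not without Lgr5-CreER library 1 (0.0974) or 2 (0.112). The family count was 1 without Lgr5-CreER library 1 or 2 and 2 without Hopx-CreER library 2 or Lgr5-CreER library 3, and 1 with the Lgr5-CreER columns sharing a number summed. Family members called lower numbered 1 with library totals alone, upper quartile factors, limma-voom, no filter on low counts or Hopx-CreER library 3 left out, and 2 with DESeq2 or GC offsets.

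Factors that act in other branches or later steps of the lineages had a median log2 fold change of 1.29. Of 12 tested, 5 rose, 1 fell and 6 did not pass (all tested genes: 9.45% higher, 3.30% lower). Isl1 and Pax6, factors of enteroendocrine cells, rose by 2.95 ± 0.56 and 2.98 ± 0.61 on the log2 scale (SE; edgeR adjusted p 0.0096 and 0.0132). Nkx2-2, also enteroendocrine, rose by 1.79 ± 0.42 (edgeR adjusted p 0.0243). Sox4, a factor of early progenitors, fell by 0.99 ± 0.20 (edgeR adjusted p 0.0115; 0.0566 without Lgr5-CreER library 2). Neurog3, the factor that starts the enteroendocrine fate, did not pass and stood at 17.6 ± 3.22 against 16.2 ± 4.44 CPM (SD, n = 3; edgeR adjusted p 0.805). The count of higher genes was 2 without Hopx-CreER library 2, 1 without Lgr5-CreER library 1 or 2, and 2 without Lgr5-CreER library 3. It was 3 with library totals alone and 2 with the Lgr5-CreER columns sharing a number summed, and genes called lower numbered 2 with DESeq2 or no filter on low counts. Isl1 passed in all 6 fits. Pax6 did not pass when Lgr5-CreER library 1 or 2 was left out (edgeR adjusted p 0.0522 and 0.066), and Nkx2-2 kept it only without Hopx-CreER library 1 or 3 (otherwise 0.0673 to 0.0838).

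The genes most like 3 of the factors were sought among 9390 others with a mean of at least 5 CPM. Likeness was the root mean square difference of log2 levels over the 6 libraries, each gene centred on its own mean. Nearest to Atoh1 were Hap1 (0.129), Rassf6 (0.152) and Ckap4 (0.174). Nearest to Spdef was another of the 10 factors, Bhlha15 (0.147), followed by H2-Q2 (0.148) and Irf7 (0.153). Nearest to Gfi1 was Neurog3 (0.070), then Apol7a (0.079) and Gm5913 (0.084). Neurog3 stood at 14.1, 18.3 and 20.4 CPM in Hopx-CreER and 11.4, 20.2 and 17.1 CPM in Lgr5-CreER libraries, low in library 1 of each group as Gfi1 was. With 6 libraries many genes can come this close, and the ranking is a description.

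**Figure D5:**
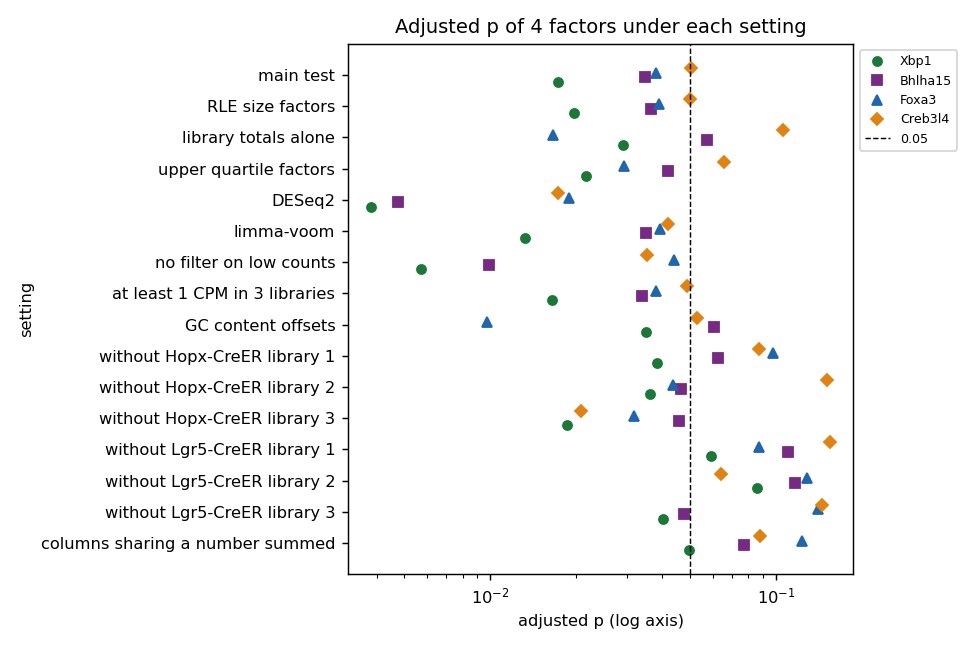
Adjusted p (log axis) of Xbp1, Bhlha15, Foxa3 and Creb3l4 in the main test and under 15 other settings, with the threshold of 0.05 as a dashed line. Xbp1 crosses the line in 2 of these settings, both of which leave out an Lgr5-CreER library, while Bhlha15 crosses it also with library totals alone and GC offsets, and both Bhlha15 and Foxa3 with the columns sharing a number summed.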

How the data were processed

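Counts were measured by RNA sequencing in 6 libraries, 3 a group; per the labels' protocols, SMART-Seq v4 cDNA and Nextera XT libraries, made without strand information. As deposited, the single table holds raw counts for versioned mouse Ensembl genes, not normalized. The submitters' processing notes list kallisto, edgeR and GRCh38 without role; GRCh38 is a human build while the identifiers are mouse. How reads were assigned to genes was not given in the sources used here. Symbols, positions and exon lengths came from GENCODE M21 (GRCm38), which matched 23479 of 23565 identifiers. Columns name the sorting gate, and libraries are numbered by column order.

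Groups were compared with edgeR 4.0.16 (R 4.3.3): TMM factors, filterByExpr, quasi-likelihood F-test, Benjamini-Hochberg adjustment over 12439 genes, threshold 0.05. Standard errors of fold changes were derived from the F statistics. Amplified reads carry no molecular identifiers, so counts are not independent molecules. Alternatives were RLE, upper quartile and total-count scaling, DESeq2 1.42.0, limma-voom 3.58.1, 2 other filters, a threshold of 0.01, GC offsets (spline, 5 degrees of freedom), each library left out, and the columns sharing a number summed. The procedure was tested on simulated data.

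The members and gene lists were chosen with earlier results of these data known. Named are the 10 members, Hopx and Lgr5, up to 4 genes with the smallest p (mean of at least 1 CPM) from each list of pathways and epithelial cell types, the most abundant gene of the other lists, and the 3 genes most like Atoh1, Spdef and Gfi1. Not all of them are printed. Other genes were named after their values were seen.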

Additional observations from a re-analysis of the deposited data

How the results depend on the processing

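Of the 10 factors, 9 kept the sign of their log2 fold change in all 16 alternatives; Gfi1, which never passed, turned to -0.10 with GC offsets and -0.09 without Lgr5-CreER library 1 (-0.09 to 0.27 over the left-out libraries). Xbp1 passed in 13 alternatives, Foxa3 in 10, Bhlha15 in 9, Creb3l4 in 6 and Creb3l1 in 1; Atoh1, Spdef, Gfi1, Foxa1 and Foxa2 passed in none. Factors called higher numbered 4 with DESeq2 (Creb3l1 and Creb3l4 added), 1 with library totals alone, 1 with GC offsets, 1 with the columns sharing a number summed (Bhlha15 lost in each) and 0 at a threshold of 0.01, and 0 to 3 with a library left out. Factors called lower numbered 0 with those columns summed (Foxa3 lost) and 0 at 0.01, and 0 to 1 with a library left out. Fewer libraries also leave fewer degrees of freedom. Over all genes, 1176 were higher and 410 lower; the higher count was 555 at 0.01, 659 with the columns summed and 606 to 1275 with a library left out, and the lower count was 729 with library totals alone, 670 with DESeq2, 890 with GC offsets, 99 at 0.01, 131 with the columns summed and 117 to 593 with a library left out. Library totals alone shifted the median of all genes by -0.114. No paired analysis was possible because the columns carry no replicate number and the groups come from mice of different genotypes. No mouse thus gave libraries to both groups, and a replicate number would not pair them by animal. In other cases of a changed call the cause was not tested. Gfi1, with 56 to 87 counts a library, had the largest SE of the 10 factors (0.31). That of Atoh1, with 379 to 923 counts a library, was close to it (0.29).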

Other observations

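Lgr5-CreER library 1 held the lowest level of the 3 Lgr5-CreER libraries for 8 of the 10 factors, all but Foxa1 and Xbp1, where 34.6% of all tested genes were lowest in that library; this was seen in the data and not tested. In the same library Notch1 stood at 119 CPM, against 69.0 and 54.9 CPM in Lgr5-CreER libraries 2 and 3, and Notch2 at 43.3 CPM, against 34.0 and 23.9 CPM. The goblet kinase gene Ern2, a relative of Ern1 and named after its values were seen, stood at 76.2, 75.3 and 67.4 CPM in Hopx-CreER and 32.0, 52.4 and 51.6 CPM in Lgr5-CreER libraries (log2 fold change 0.69 ± 0.19, SE; edgeR adjusted p 0.0468), and its call held in 1 of 6 fits that left out a library.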
